A study of Mus musculus with 24 samples.

Results

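Interferon-stimulated genes are the genes that a cell switches on when it senses type I interferon. The 35 described here are those outside the OAS, Ifit, GTPase, Schlafen, IRF and STAT gene families, which are listed apart, although the antiviral GTPase gene Mx1 is counted among the 35. They were picked by gene symbol, and all 35 were found among the 34111 genes with usable values, and all 35 passed the filter on low counts in every comparison. The values come from splenic T lymphocytes of C57BL/6N mice, isolated with an EasySep Mouse T Cell Isolation Kit and split into CD4 and CD8 libraries. Every mouse carried either the genotype Atm-/- (KO, lacking the DNA damage kinase ATM) or Atmwt/wt (WT). Each genotype was studied after transplantation of a B-cell lymphoma (lymphoma) and without transplantation (control). The groups were KO lymphoma, KO control, WT lymphoma and WT control, each as CD4 and as CD8 cells, with 3 libraries in each of 8 groups. The CD4 and CD8 libraries of 1 number in a group came from the same mice. In all there were 12 pools of mice, and a WT lymphoma library held RNA of 1 mouse where other libraries held RNA of 2 or 3. The construction of the Atm-/- allele, the age of the mice, the lymphoma line and the way CD4 and CD8 cells were separated are not given in the sources used here.

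In the usual course of this pathway, interferon alpha or beta binds a receptor made of Ifnar1 and Ifnar2, and the receptor's kinases, Jak1 and Tyk2, pass the signal on. A complex of transcription factors then enters the nucleus and binds a DNA element called the interferon-stimulated response element (ISRE) in front of the target genes. The products block virus entry, replication and release, sense foreign nucleic acid, and feed back on the pathway. In T cells type I interferon is known to act on proliferation, survival and effector function. The 35 genes fall into 6 roles. The conjugation of the ubiquitin-like protein ISG15 takes 5 of them, the ADP-ribosyltransferase (PARP) family with Dtx3l takes 5, antiviral effectors take 11, the Trim30 and Phf11 paralogs take 4, nuclear and signalling regulators take 6, and membrane and secreted proteins take 4.

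The DNA in front of these genes is shown because the ISRE is the element through which type I interferon usually acts on its target genes. RefSeq promoter windows (build GRCm38.p6, 250 bases before to 50 after the start) were at hand for 26 of the 35 genes. The ISRE core searched was GAAA, any 2 bases and GAAA again, on both strands, with overlapping matches counted. It was present in 9 of these 26 genes (34.6%), against 3.99% of all 27025 genes with a window. The core of the gamma-activated site, TTCNNNGAA, which reads the same on both strands and overlaps the ISRE letters in part, was present in 6 of 26 (23.1%), against 9.55% of all genes. A match is a run of letters and was not shown here to bind anything. The 150 bases before the start are given below, 5′ to 3′ on the strand of the gene, for the 7 genes with a match there, with the matches in capitals.
Isg15 (chr4:156200819-156200968, minus strand): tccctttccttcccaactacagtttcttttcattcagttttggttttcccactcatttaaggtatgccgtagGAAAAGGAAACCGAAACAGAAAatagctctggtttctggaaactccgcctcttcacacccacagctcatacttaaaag
Bst2 (chr8:71537473-71537622, minus strand): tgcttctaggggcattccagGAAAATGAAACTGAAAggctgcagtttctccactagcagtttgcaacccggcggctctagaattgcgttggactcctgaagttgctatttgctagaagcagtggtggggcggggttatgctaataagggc
Ddx60 (chr8:61927937-61928086, plus strand): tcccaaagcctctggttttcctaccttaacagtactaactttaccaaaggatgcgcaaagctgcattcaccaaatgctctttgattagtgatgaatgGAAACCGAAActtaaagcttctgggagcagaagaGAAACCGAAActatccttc
Phf11b (chr14:59341331-59341480, minus strand): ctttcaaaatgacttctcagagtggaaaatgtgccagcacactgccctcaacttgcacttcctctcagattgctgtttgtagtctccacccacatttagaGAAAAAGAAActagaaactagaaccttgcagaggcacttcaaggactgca
Lgals9 (chr11:78984925-78985074, minus strand): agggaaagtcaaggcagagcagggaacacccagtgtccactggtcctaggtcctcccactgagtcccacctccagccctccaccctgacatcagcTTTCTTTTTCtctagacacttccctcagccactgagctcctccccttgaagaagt
Trim30a (chr7:104465194-104465343, minus strand): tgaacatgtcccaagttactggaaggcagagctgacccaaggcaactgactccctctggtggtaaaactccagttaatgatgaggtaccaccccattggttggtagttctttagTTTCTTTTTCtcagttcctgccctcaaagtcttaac
Trim30d (chr7:104507850-104507999, minus strand): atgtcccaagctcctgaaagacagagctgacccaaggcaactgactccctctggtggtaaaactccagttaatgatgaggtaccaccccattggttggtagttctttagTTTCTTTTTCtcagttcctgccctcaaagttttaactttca
Isg15 held 3 overlapping matches, at positions -78, -72 and -66 from its start, and Bst2 held 2, at -130 and -124. Ddx60 held 2 separate ones, at -53 and -19. Trim30a and Trim30d are neighbours on chromosome 7, 4821 bases apart, and their windows were identical at 140 of 155 aligned positions (90.3%), the match included. In Ifitm3 and Eif2ak2 the matches lay after the start, and their windows are not printed.

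Total counts ran from 6470482 to 10196062 per library, and 15263 to 17707 genes had a count. Levels are given in CPM, counts scaled to the same total in every library, and fold changes as log2 values ± standard error. A gene rose or fell where its p, from edgeR's quasi-likelihood test and adjusted by Benjamini-Hochberg over all genes tested, was below 0.05. Atm RNA was at 26.9 to 107 CPM in the KO libraries and 117 to 210 CPM in the WT libraries, and Cd8a was at 142 to 534 CPM in CD8 libraries and 2.84 to 22.5 CPM in CD4 libraries. Cd4 was at 71.1 to 134 CPM in CD4 libraries and 1.45 to 7.94 CPM in CD8 libraries. RNA of other blood cells was present in every group. CD8 KO lymphoma 1 stood apart, with summed erythroid markers of 65969 CPM and the lowest summed pan-T markers, at 1384 CPM. It also had the highest summed neutrophil (3673 CPM), B cell (977 CPM) and dendritic cell markers (538 CPM) of the 24 libraries. CD4 KO control 2 had the next highest erythroid sum, at 35078 CPM. In bulk RNA, fewer cells of a type and less RNA per cell cannot be told apart.

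The mean log2 CPM of the 35 genes put the 8 groups in the same order in CD4 and CD8 cells. In CD4 cells it was 6.25, 6.32 and 5.77 in KO lymphoma, 5.63, 5.67 and 5.57 in KO control, 6.09, 6.38 and 6.36 in WT lymphoma, and 5.33, 5.15 and 5.24 in WT control. In CD8 cells it was 6.16, 6.35 and 5.74 in KO lymphoma, 5.49, 5.52 and 5.50 in KO control, 6.07, 6.20 and 6.44 in WT lymphoma, and 5.29, 5.26 and 5.22 in WT control. Every lymphoma library lay above every control library of its co-receptor, and every KO control lay above every WT control. KO lymphoma 3 was the lowest lymphoma library in both co-receptors. The KO and WT lymphoma libraries overlapped.

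**Figure D1:**
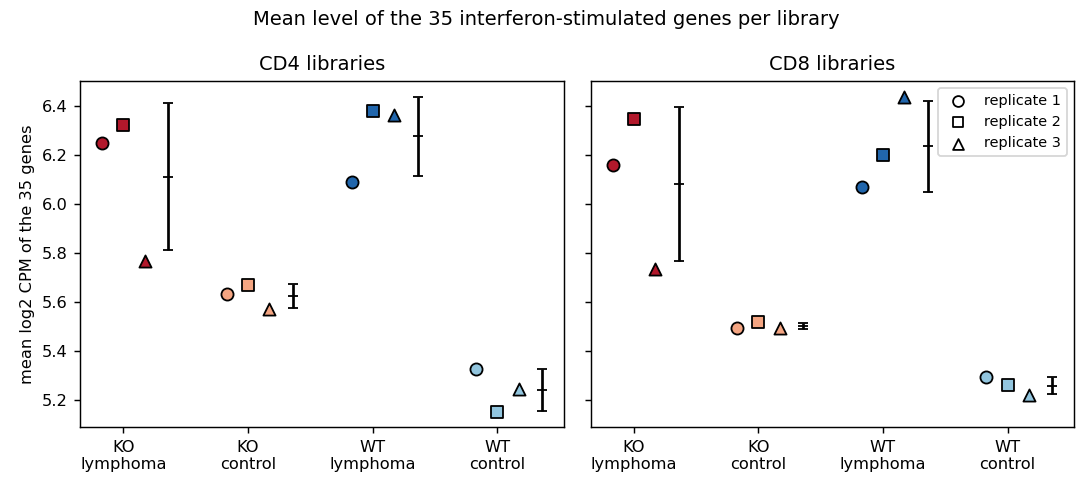
Mean log2 CPM of the 35 genes in each library (vertical axis) by group (horizontal axis), CD4 on the left and CD8 on the right, with the mean ± SD of 3 libraries in black. KO lymphoma 3 (triangle) lies at 5.77 in CD4 and 5.74 in CD8 cells, nearest to the KO controls.

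In WT mice the lymphoma came with higher RNA of 15 of the 35 genes in CD4 cells and 16 in CD8 cells, and none fell in either. Among all genes tested, 1.62% rose in CD4 and 1.26% in CD8 cells, and 0.0703% fell in CD4 and 0.158% in CD8 cells. The risers included Isg15 and its protease Usp18, the virus entry and release blockers Ifitm3 and Bst2, the antiviral gene Rtp4 and the secreted glycoprotein gene Lgals3bp. The 3 WT lymphoma libraries lay above the 3 WT control libraries for 32 genes in CD4 cells (16.4% of all genes did) and for 30 in CD8 cells (14.2% of all genes). They lay below for none of the 35 in either (8.66% of all genes in CD4 and 14.9% in CD8 cells). The median log2 fold change of the 35 genes was 0.77 in CD4 and 0.83 in CD8 cells, where that of all genes was -0.01 in each. Of the 15 and 16 risers, 13 were shared, which is 13 of 15 CD4 risers and 13 of 16 CD8 risers from the same mice. Trim25 and Phf11b rose in CD4 cells, and Adar, Dtx3l and Ifi35 rose in CD8 cells. Whether these 5 responded differently in the 2 co-receptors is covered by the tests of the difference given further on, in which no gene passed.

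Among the ISG15 conjugation genes, Isg15 (chromosome 4, 156199424 to 156200818, minus strand, GRCm38) encodes the modifier itself. It was at 366, 560 and 552 CPM in CD4 WT lymphoma and 124, 79.3 and 82.8 CPM in CD4 WT control. In CD8 cells it was at 358, 449 and 503 CPM in WT lymphoma and 112, 89.7 and 77.2 CPM in WT control. The groups did not overlap, and the log2 fold change was 2.30 ± 0.29 in CD4 (adjusted p = 0.0045) and 2.24 ± 0.31 in CD8 cells (adjusted p = 0.009). Usp18 (chromosome 6, 121245906 to 121270917, plus strand) encodes the protease that removes ISG15 and that restrains the interferon receptor. Its levels were 41.1, 64.6 and 50.5 CPM in CD4 WT lymphoma and 15.8, 12.7 and 11.1 CPM in CD4 WT control. In CD8 cells they were 43.2, 47.8 and 56.8 CPM in WT lymphoma and 8.73, 8.45 and 11.2 CPM in WT control. Usp18 had the smallest p of the 35 genes in CD8 cells, with 2.39 ± 0.18 (adjusted p = 0.000167), and 1.91 ± 0.27 in CD4 cells (adjusted p = 0.00762). The activating enzyme gene Uba7 and the mouse ISG15 ligase gene Herc6 lay above their controls in all 3 WT lymphoma libraries of both co-receptors and passed in neither. Part of the 3′ end of Uba7 (35.7% of its 31-base words) is shared with the overlapping gene Gm20661, so its counts may hold reads of both. Trim25, a ubiquitin ligase of the RNA sensor RIG-I, rose by 0.87 ± 0.14 in CD4 cells (adjusted p = 0.0106).

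The PARP family genes encode enzymes that attach ADP-ribose to proteins, and PARP9 works in a complex with the ubiquitin ligase DTX3L. Parp12 was at 14.5, 16.9 and 25.1 CPM in CD4 WT lymphoma and 4.17, 7.05 and 5.25 CPM in CD4 WT control, and rose by 1.70 ± 0.27 (adjusted p = 0.0103). In CD8 cells Parp12 was at 16.6, 18.5 and 26.4 CPM in WT lymphoma and 5.53, 7.21 and 7.25 CPM in WT control, and rose by 1.62 ± 0.25. Parp9 rose by 0.77 ± 0.16 in CD4 and 0.99 ± 0.18 in CD8 cells, and Dtx3l by 0.63 ± 0.12 in CD8 cells. The Parp9 and Dtx3l genes overlap on opposite strands of chromosome 16, and no source used here says whether the counting used strand. Parp10 and Parp14 did not pass in either co-receptor.

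Among the antiviral effectors, Ifitm3 and Mx1 had the highest fold changes in CD4 cells. Ifitm3 (chromosome 7, 141009586 to 141010770, minus strand), whose product blocks virus entry at endosomes, was at 52.2, 84.1 and 133 CPM in CD4 WT lymphoma and 11.8, 19.8 and 19.2 CPM in CD4 WT control. In CD8 cells Ifitm3 was at 51, 68.5 and 156 CPM in WT lymphoma and 4.8, 23.4 and 18.1 CPM in WT control. Ifitm3 rose by 2.35 ± 0.32 in CD4 (adjusted p = 0.00678) and 2.54 ± 0.53 in CD8 cells (adjusted p = 0.0467), and WT lymphoma 3 was the highest library in both. Of its 3′ words, 28.3% are shared with other genes. Mx1, which is carried in a non-functional form by C57BL/6 mice, was at 6.06, 10.2 and 10.2 CPM in CD4 WT lymphoma and 0.879, 1.39 and 1.85 CPM in CD4 WT control, with 2.64 ± 0.39 (adjusted p = 0.00861). In CD8 cells Mx1 was at 8.85, 11.2 and 13.5 CPM in WT lymphoma and 2.76, 3.04 and 2.29 CPM in WT control. Counts of Mx1 were as low as 8 in a library, the lowest count of any of the 35 genes.

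Rtp4 (chromosome 16, 23520291 to 23614222, plus strand), a receptor transporter gene with antiviral activity, was at 127, 178 and 153 CPM in CD4 WT lymphoma and 57.3, 35.1 and 32.8 CPM in CD4 WT control. In CD8 cells Rtp4 was at 128, 155 and 156 CPM in WT lymphoma and 48.9, 39.8 and 38.2 CPM in WT control. Its fold change was 1.81 in both, with a standard error of 0.24 in CD4 and 0.16 in CD8 cells. Bst2, which encodes tetherin, a protein that holds budding virus at the cell surface, was at 90.5, 94.5 and 120 CPM in CD4 WT lymphoma and 42.1, 18.5 and 38.6 CPM in CD4 WT control (1.58 ± 0.24, adjusted p = 0.00867). In CD8 cells Bst2 rose by 1.47 ± 0.17 (adjusted p = 0.0016). Zbp1, a sensor of Z-form nucleic acid, rose by 1.37 ± 0.25 in CD4 and 1.39 ± 0.16 in CD8 cells. Adar, which edits adenosines in double-stranded RNA, rose by 0.54 ± 0.12 in CD8 cells (adjusted p = 0.0442). The exonuclease gene Isg20, the kinase gene Eif2ak2 (PKR) and the helicase genes Ddx60 and Znfx1 passed in neither co-receptor in WT mice, and their WT lymphoma and control libraries did not overlap in either.

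Xaf1, whose product antagonises the apoptosis inhibitor XIAP, was the only riser among the 6 nuclear and signalling regulators in CD4 cells (1.30 ± 0.22), and rose by 1.38 ± 0.15 in CD8 cells, where Ifi35 rose too (0.70 ± 0.15). Of the 4 membrane and secreted protein genes 3 rose in both co-receptors. Lgals3bp was at 37.7, 51 and 51.4 CPM in CD4 WT lymphoma and 20.3, 13.9 and 16.1 CPM in CD4 WT control, which gave 1.42 ± 0.17 and the smallest p of the 35 genes in CD4 cells (adjusted p = 0.00424). Ifi27l2a, a small membrane protein gene, was at 176, 210 and 258 CPM in CD8 WT lymphoma and 73, 65.7 and 59.8 CPM in CD8 WT control (1.71 ± 0.15, adjusted p = 0.000337). The torsin family ATPase gene Tor3a rose by 1.23 ± 0.20 in CD4 and 1.28 ± 0.17 in CD8 cells, and the galectin gene Lgals9 passed in neither. Phf11b rose by 0.92 ± 0.19 in CD4 cells. Its 3′ words are shared with Phf11c and other genes to 55.7%, so that reads of the paralogs may not be separable. The log2 fold changes of Nmi, Samd9l and Sp100 lay between -0.17 and 0.31 in both co-receptors, and their groups overlapped.

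The counts of risers depended on single libraries. In CD4 cells 7 of the 35 genes rose without WT control 1 (0.222% of all genes) and 9 without WT lymphoma 3 (0.39%). In CD8 cells 8 rose without WT control 3 (0.17%) and 9 without WT lymphoma 3 (0.256%). There 10 rose without WT control 1 (0.424%) and 10 without WT lymphoma 2 (0.308%). Bst2, Ifitm3, Isg15, Lgals3bp, Rtp4 and Usp18 passed in CD4 cells in the main test and under all 15 alternatives, and Bst2, Ifi27l2a, Lgals3bp, Rtp4, Tor3a, Usp18, Xaf1 and Zbp1 did so in CD8 cells. Markers of other cells moved with the lymphoma. Summed monocyte and macrophage markers (15 genes, all with counts in every group) were 1255 to 1824 CPM in CD4 WT lymphoma and 635 to 1110 CPM in CD4 WT control, and 1196 to 1999 CPM in CD8 WT lymphoma and 236 to 1241 CPM in CD8 WT control. Summed platelet markers (10 genes, none at 0) were 281 to 314 CPM in CD4 WT lymphoma and 108 to 135 CPM in CD4 WT control, and 276 to 350 CPM in CD8 WT lymphoma and 64.9 to 110 CPM in CD8 WT control. Summed neutrophil markers (12 genes, none at 0) were 321 to 743 CPM in CD4 WT lymphoma and 73.5 to 211 CPM in CD4 WT control, and 225 to 297 CPM in CD8 WT lymphoma and 65.3 to 203 CPM in CD8 WT control. Summed blood progenitor markers (7 genes, none at 0) were 57.1 to 194 CPM in CD4 WT lymphoma and 11.6 to 18.5 CPM in CD4 WT control, and 52.9 to 165 CPM in CD8 WT lymphoma and 9.75 to 23.1 CPM in CD8 WT control. Summed pan-T markers were 3213 to 4063 CPM in CD4 WT lymphoma and 4213 to 4800 CPM in CD4 WT control, and 2752 to 3437 CPM in CD8 WT lymphoma and 3854 to 4332 CPM in CD8 WT control. Their part in the result was not tested. Summed Y-linked RNA (3 genes, none at 0) was 1.88 to 117 CPM in CD4 WT lymphoma and 68.1 to 189 CPM in CD4 WT control, and 1.41 to 161 CPM in CD8 WT lymphoma and 54.7 to 178 CPM in CD8 WT control. With it as a covariate 13 of the 35 genes rose in CD4 (3.15% of all genes) and 12 in CD8 cells (0.854%).

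**Figure D2:**
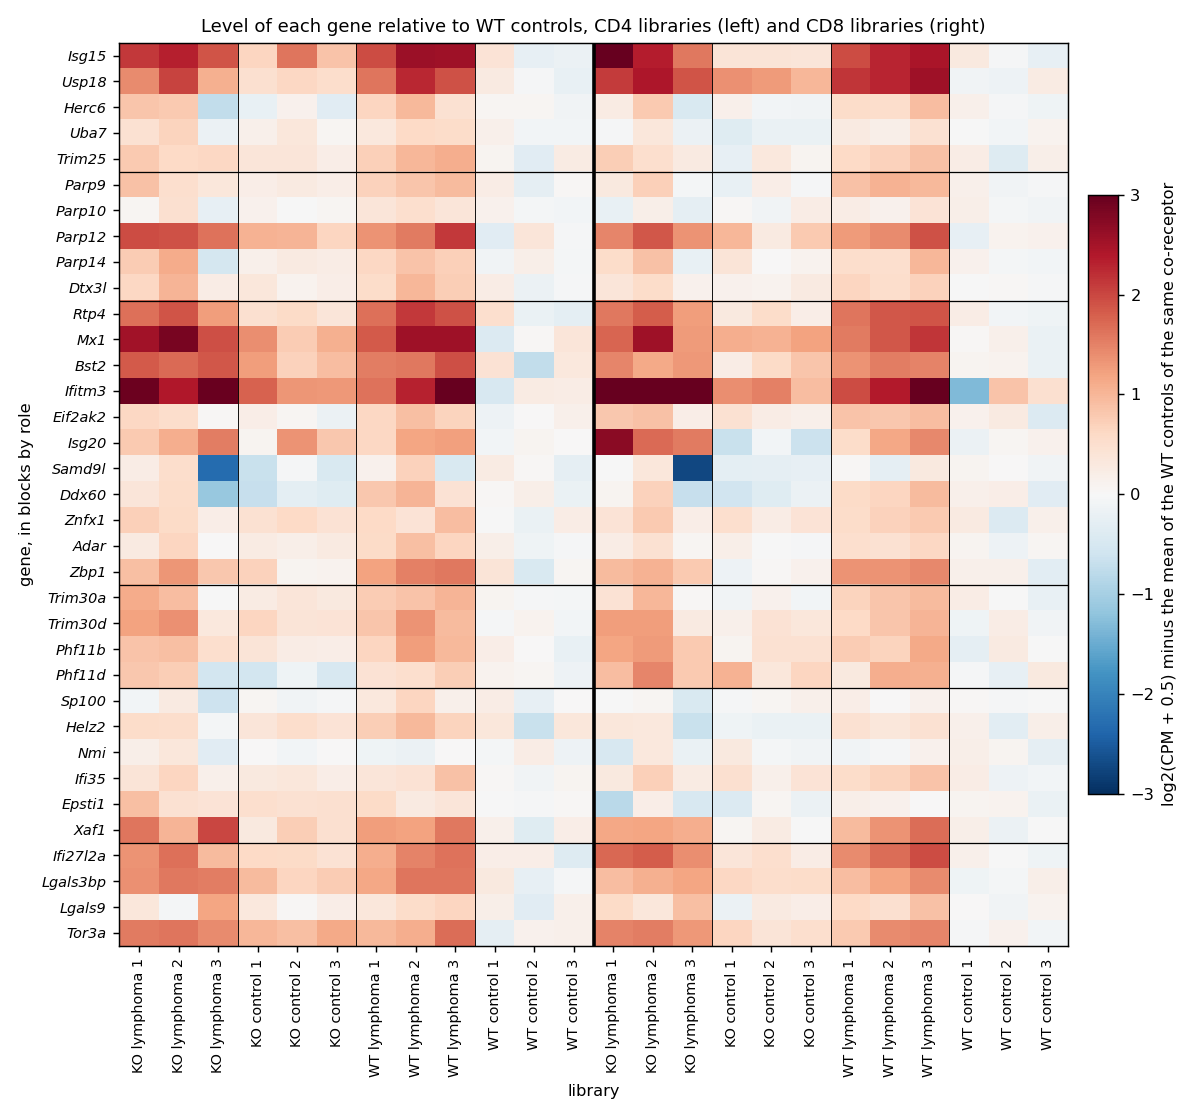
Level of each of the 35 genes (rows, in blocks by role) in each of 24 libraries (columns), as log2(CPM + 0.5) minus the mean of the 3 WT controls of the same co-receptor. Isg15, Usp18, Mx1 and Ifitm3 are high in all 12 lymphoma libraries, and in KO lymphoma 3 of both co-receptors Samd9l and Ddx60 are low.

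In KO mice the lymphoma came with 9 risers of the 35 genes in CD8 cells and with none in CD4 cells, and none fell. Of all genes, 1.39% rose and 0.791% fell in CD8 cells, and in CD4 cells 0 of 12808 genes passed (0.0%). In CD4 cells 16 of the 35 genes were higher at an unadjusted p under 0.05 in edgeR, where 9.21% of all genes were. DESeq2 called 10 higher (1.69% of all genes) and limma voom with sample weights 16 (3.55%). The 3 KO lymphoma libraries lay above the 3 KO controls for 15 genes in CD4 cells (8.8% of all genes) and for 16 in CD8 cells (14.0%). They lay below for none of the 35 (10.1% of all genes in CD4 and 13.7% in CD8 cells). The median log2 fold change was 0.45 in CD4 and 0.49 in CD8 cells, with -0.01 and -0.02 over all genes.

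In CD4 cells the smallest p belonged to Xaf1, Rtp4 and Mx1. Xaf1 was at 91, 60.2 and 121 CPM in CD4 KO lymphoma and 36.3, 49.8 and 41.5 CPM in CD4 KO control, with a log2 fold change of 1.05 ± 0.21 (adjusted p = 0.106). Rtp4 was at 129, 150 and 96.5 CPM in CD4 KO lymphoma and 56.3, 60.9 and 52.5 CPM in CD4 KO control (1.14 ± 0.24, adjusted p = 0.106). Mx1 was at 9.98, 12.7 and 6.44 CPM in CD4 KO lymphoma and 4.28, 2.61 and 3.34 CPM in CD4 KO control (1.51 ± 0.35, adjusted p = 0.136). In all 3 the groups did not overlap. Isg15 was at 407, 474 and 346 CPM in CD4 KO lymphoma and 146, 285 and 170 CPM in CD4 KO control, where KO control 2 was the highest control (1.02 ± 0.28, adjusted p = 0.166). Usp18, Ifitm3 and Lgals3bp had 1.03 ± 0.27, 1.28 ± 0.30 and 0.72 ± 0.17, with adjusted p of 0.159, 0.137 and 0.136. Without KO lymphoma 2, 3 of the 35 genes rose (2.6% of all genes), and without KO lymphoma 3, 2 did (0.123%).

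In CD8 cells the KO risers were Isg15, Usp18, Rtp4, Bst2, Isg20, Zbp1, Xaf1, Ifi27l2a and Tor3a. All but Isg20 also rose in CD8 cells of WT mice, which is 8 of 9 KO risers and 8 of 16 WT risers. Isg20, an exonuclease that degrades viral RNA, had the highest fold change, 2.62 ± 0.34 (adjusted p = 0.0123). It was at 49.4, 24.3 and 21.9 CPM in CD8 KO lymphoma and 4.28, 6.73 and 4.41 CPM in CD8 KO control. Isg15 was at 789, 475 and 274 CPM in CD8 KO lymphoma and 120, 119 and 118 CPM in CD8 KO control (2.10 ± 0.31, adjusted p = 0.0248). For both genes KO lymphoma 1, the library with the highest erythroid, neutrophil, B cell and dendritic cell sums, was the highest. Without it the fold change was 2.14 for Isg20 and 1.64 for Isg15. Ifi27l2a was at 219, 235 and 175 CPM in CD8 KO lymphoma and 84.8, 93 and 76.6 CPM in CD8 KO control (1.30 ± 0.15, adjusted p = 0.0123). Rtp4 was at 126, 149 and 101 CPM in CD8 KO lymphoma and 51.2, 61.8 and 48.6 CPM in CD8 KO control (1.22 ± 0.16, adjusted p = 0.0123). Usp18 was at 41.6, 52.8 and 35.8 CPM in CD8 KO lymphoma and 25.2, 23.6 and 19.3 CPM in CD8 KO control (0.94 ± 0.17, adjusted p = 0.0279). The fold changes of Xaf1, Zbp1, Tor3a and Bst2 were 1.05 ± 0.15, 0.94 ± 0.16, 0.94 ± 0.17 and 0.73 ± 0.16. Lgals3bp, which rose in WT mice, had 0.49 ± 0.13 (adjusted p = 0.0574).

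Leaving out libraries moved this count of 9, and the share of all genes called moved too. None of the 35 genes rose without KO control 1 or without KO control 3, where 0.0% of all genes rose. Without KO control 2, 3 rose (0.0232% of all genes), and without KO lymphoma 1, 3 rose (0.0466%). Without KO lymphoma 2, 11 rose (7.35%), and without KO lymphoma 3, 9 rose (0.325%). Several sums of other cells' markers did not overlap between the groups. Summed neutrophil markers were 414 to 3673 CPM in CD8 KO lymphoma and 103 to 157 CPM in CD8 KO control. Summed monocyte and macrophage markers were 2170.1 to 2899 CPM in CD8 KO lymphoma and 1422 to 1444 CPM in CD8 KO control, and 2188 to 3117 CPM in CD4 KO lymphoma and 1674 to 2211 CPM in CD4 KO control, where they overlapped. Summed platelet markers were 317 to 452 CPM in CD8 KO lymphoma and 154 to 286 CPM in CD8 KO control, and 341 to 545 CPM in CD4 KO lymphoma and 179 to 361 CPM in CD4 KO control, where they overlapped as well. In CD4 cells summed B cell markers were 65.8 to 119.7 CPM in KO lymphoma and 423 to 563 CPM in KO control, and summed natural killer cell markers (10 genes, none at 0) were 254 to 355 CPM in KO lymphoma and 406 to 501 CPM in KO control. Summed dendritic cell markers (10 genes, none at 0) were 131 to 182 CPM in CD4 KO lymphoma and 215 to 275 CPM in CD4 KO control. In CD8 cells summed B cell markers were 54.4 to 977 CPM in KO lymphoma and 146.7 to 202.5 CPM in KO control, and overlapped. Summed pan-T markers were 1384 to 2785 CPM in CD8 KO lymphoma and 3361 to 3593 CPM in CD8 KO control, and 2006 to 3573 CPM in CD4 KO lymphoma and 3568 to 4044 CPM in CD4 KO control. Summed blood progenitor markers were 75.8 to 317 CPM in CD8 KO lymphoma and 33 to 56.1 CPM in CD8 KO control, and 90.5 to 353 CPM in CD4 KO lymphoma and 43.4 to 51.9 CPM in CD4 KO control. Their part in the result was not tested.

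**Figure D3:**
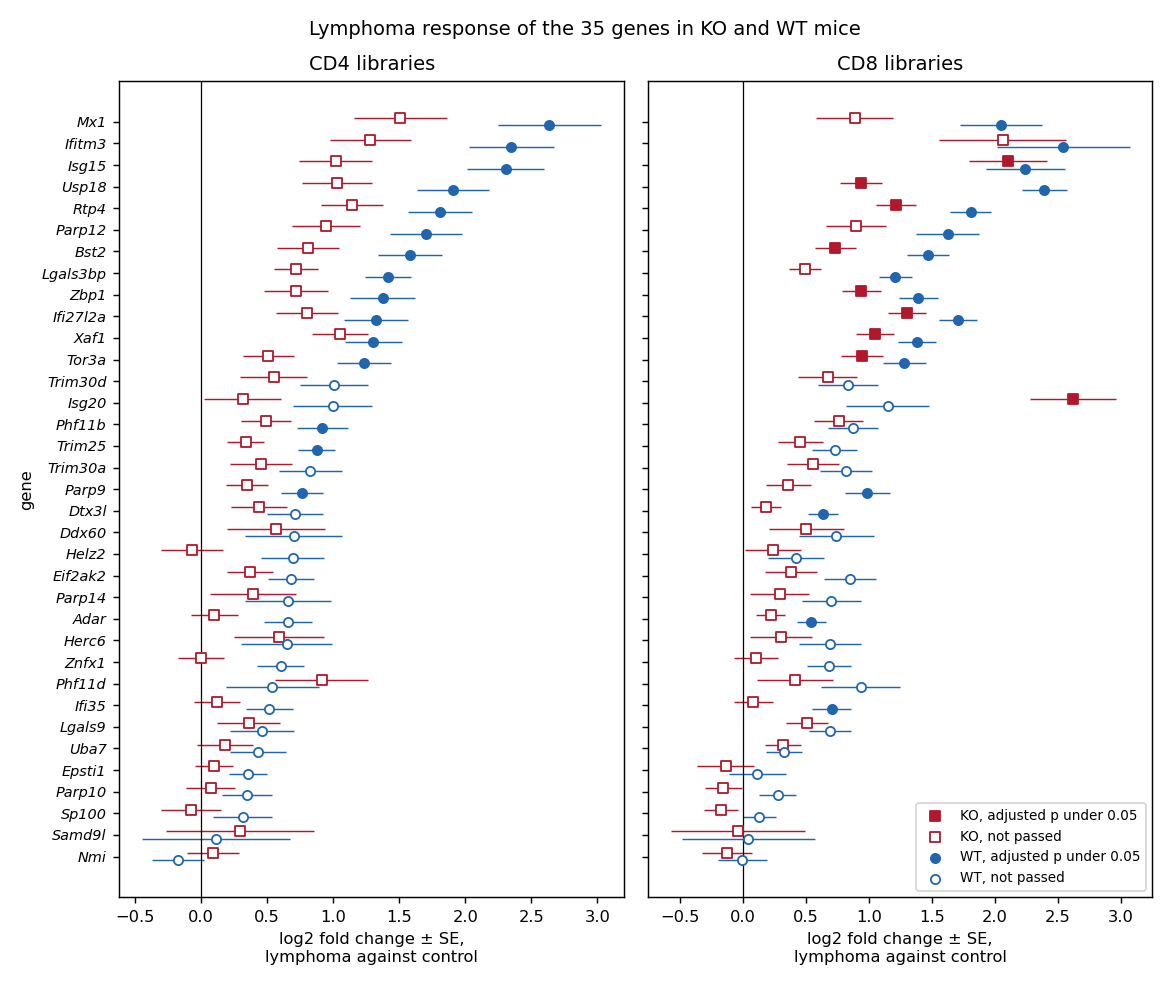
Log2 fold change ± SE, lymphoma against control (horizontal axis), of each of the 35 genes (vertical axis, ordered by the CD4 WT value), with KO as squares and WT as circles and filled symbols for an adjusted p under 0.05. Most WT circles lie right of the KO squares, and Isg20 in CD8 cells lies the other way.

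KO lymphoma 3 differed from the other KO lymphoma libraries gene by gene. In its CD4 library 17 of the 35 genes lay above all 3 KO controls and 15 lay below all 3, and in its CD8 library 16 lay above and 10 below. The other KO lymphoma libraries had 32 and 31 genes above in CD4 and 28 and 33 above in CD8 cells, with 0 to 3 below. In those libraries 38.3% and 23.2% of all genes tested lay above in CD4 and 34.2% and 27.0% in CD8 cells. Below lay 28.5% and 39.7% of all genes in CD4 and 34.9% and 29.5% in CD8 cells. For KO lymphoma 3, 42.3% of all genes lay above and 36.9% below in the CD4 library. In its CD8 library 36.5% lay above and 35.8% below. The same 10 genes lay below in both co-receptors, namely Ddx60, Epsti1, Helz2, Herc6, Nmi, Parp10, Parp14, Samd9l, Sp100 and Znfx1. Of 12450 genes tested in both fits 26.5% lay below in both, against 28.6% of the 35. The 35 genes thus lay below at near the share of all genes. The 15 genes above in both (42.9%, against 29.1% of all genes) included Isg15, Usp18, Rtp4, Ifitm3, Bst2, Mx1, Isg20 and Xaf1.

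Samd9l, a gene of the SAMD9 family of antiviral factors, was at 73.8, 91 and 12.2 CPM in CD4 KO lymphoma and 39.1, 61.8 and 45.6 CPM in CD4 KO control. In CD8 cells Samd9l was at 65.1, 83.1 and 9.36 CPM in KO lymphoma and 53.5, 54.6 and 54.8 CPM in KO control. Ddx60, a helicase gene linked to RNA sensing, was at 35, 39.8 and 12 CPM in CD4 KO lymphoma and 16.5, 21.7 and 20.8 CPM in CD4 KO control. Sp100, a component of nuclear bodies, was at 321, 408 and 220 CPM in CD4 KO lymphoma and 356, 316 and 331 CPM in CD4 KO control. In each, KO lymphoma 3 was the lowest of the 6 libraries, and the other KO lymphoma libraries lay within or above the controls. The 10 genes below had a median longest annotated transcript of 5048 bases and the 15 above one of 1771 bases. Over all genes on the same sides of their controls in that pool the medians were 4080 and 2848 bases, and over all genes tested in both fits 3308 bases. KO lymphoma 3 also had the highest summed progenitor markers of both co-receptors, at 353 CPM in CD4 and 317 CPM in CD8 cells. Its summed pan-T markers were the lowest of the CD4 libraries, at 2006 CPM. In CD8 cells they were 2160 CPM, and only KO lymphoma 1 was lower, at 1384 CPM. The part of transcript length, of T cell RNA and of other cells in this pattern was not tested.

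**Figure D4:**
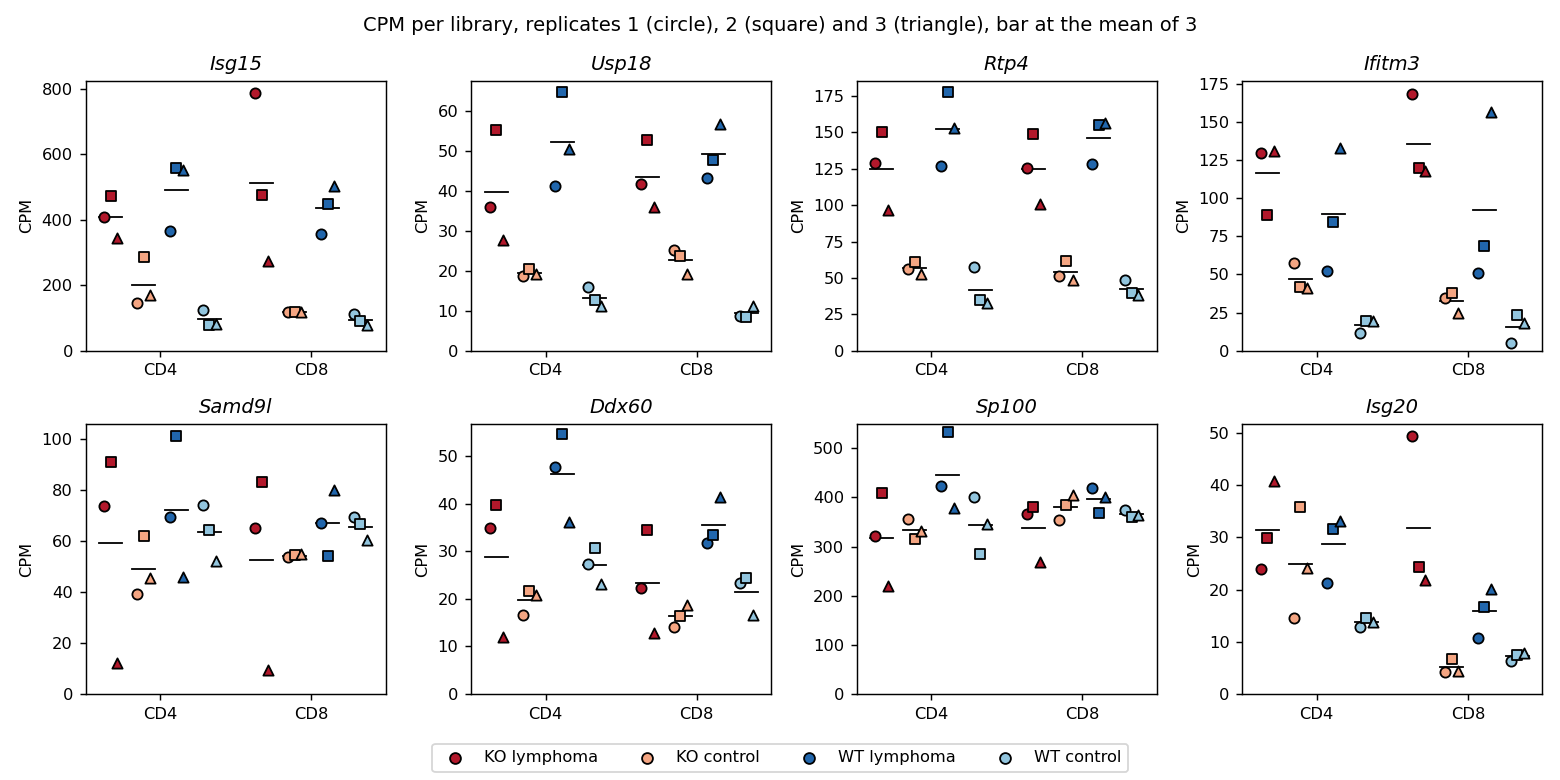
CPM of 8 genes (1 panel each) in every library, by co-receptor and group, with a bar at the mean of 3. Isg15, Usp18, Rtp4 and Ifitm3 lie above the controls in KO lymphoma 3 (triangle), and Samd9l, Ddx60 and Sp100 lie below them.

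Control KO mice, without lymphoma, had higher RNA than control WT mice of Tor3a and Ifitm3 in CD4 cells and of Usp18 in CD8 cells, and no gene of the 35 was lower past the threshold. Of all genes, 1.94% rose and 0.0703% fell in CD4 cells, and 0.403% rose and 0.119% fell in CD8 cells. The 3 KO controls lay above the 3 WT controls for 19 of the 35 genes in CD4 cells (21.4% of all genes) and for 11 in CD8 cells (12.1%). They lay below for Ddx60 in CD4 cells (11.3% of all genes) and for Uba7 and Samd9l in CD8 cells (12.7%). The median log2 fold change was 0.22 in CD4 and 0.20 in CD8 cells.

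Tor3a was at 40.5, 37.5 and 44.1 CPM in CD4 KO control and 16.4, 21.7 and 22.3 CPM in CD4 WT control (0.94 ± 0.20, adjusted p = 0.0399). Ifitm3 was at 57.6, 42 and 41.2 CPM in CD4 KO control and 11.8, 19.8 and 19.2 CPM in CD4 WT control (1.40 ± 0.32, adjusted p = 0.0474). Neither passed when any 1 of the 6 libraries was left out or with the level of B cell markers as a covariate, an alternative added after seeing the data. Usp18 was at 25.2, 23.6 and 19.3 CPM in CD8 KO control and 8.73, 8.45 and 11.2 CPM in CD8 WT control (1.29 ± 0.18, adjusted p = 0.00882). It passed under 13 of 15 alternatives, whose adjusted p ran from 1.085e-06 to 0.0571. It did not pass without KO control 2 or with Y-linked RNA as a covariate, where the fold changes were 1.27 ± 0.20 and 1.22 ± 0.21. The same gene in CD4 cells was at 18.6, 20.5 and 19.2 CPM in KO control and 15.8, 12.7 and 11.1 CPM in WT control, without overlap, and did not pass (0.48 ± 0.27, adjusted p = 0.377). Y-linked RNA summed to 1.25 to 57.7 CPM in CD4 KO control and 68.1 to 189 CPM in CD4 WT control, without overlap. In CD8 cells it was 2.79 to 66.5 CPM in KO control and 54.7 to 178 CPM in WT control, where they overlapped.

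Markers of other cells differed here as well. Summed monocyte and macrophage markers were 1674 to 2211 CPM in CD4 KO control and 635 to 1110 CPM in CD4 WT control, and 9 of the 15 rose. Summed B cell markers (12 genes, none at 0) were 423 to 563 CPM in CD4 KO control and 33.1 to 413 CPM in CD4 WT control. Summed erythroid markers (10 genes, none at 0) were 5121 to 35078 CPM in CD4 KO control and 452 to 9442 CPM in CD4 WT control. Natural killer cell sums were 406 to 501 CPM in CD4 KO control and 95.2 to 295 CPM in CD4 WT control. Progenitor, platelet, neutrophil and dendritic cell sums also lay higher in every CD4 KO control than in every CD4 WT control. Summed pan-T markers went the other way, at 3568 to 4044 CPM in CD4 KO control and 4213 to 4800 CPM in CD4 WT control. In CD8 cells the monocyte and macrophage sums were 1422 to 1444 CPM in KO control and 236 to 1241 CPM in WT control. There natural killer cell sums were 500 to 584 CPM in KO and 113 to 360 CPM in WT control. Progenitor sums were 33 to 56.1 CPM in KO and 9.75 to 23.1 CPM in WT control. Platelet sums were 154 to 286 CPM in KO and 64.9 to 110 CPM in WT control. Lower in KO were pan-T sums, at 3361 to 3593 CPM against 3854 to 4332 CPM. Dendritic cell sums were also lower, at 196 to 232 CPM against 348 to 427 CPM in WT. B cell, neutrophil and erythroid sums overlapped. The part of these markers in the result was not tested.

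In lymphoma-bearing mice none of the 35 genes passed between KO and WT in either co-receptor. At an unadjusted p under 0.05 in edgeR 2 were lower in CD4 cells (4.97% of all genes), and 3 were lower (9.48%) and 1 higher (8.51%) in CD8 cells, and DESeq2 called none in either. Of all genes 0.0% rose and 0.0% fell in CD4 cells, and 0.0711% rose and 0.174% fell in CD8 cells. All 3 KO lymphoma libraries lay above the WT lymphoma libraries for none of the 35 genes in CD4 cells (6.81% of all genes) and for 1 in CD8 cells (8.03%), and below for 2 in CD4 (6.09%) and 3 in CD8 cells (13.5%). The median log2 fold change, KO against WT, was -0.15 in CD4 and -0.19 in CD8 cells. In CD4 cells the smallest p belonged to Adar (-0.40 ± 0.18, adjusted p = 0.451), Sp100 (-0.50 ± 0.23) and Trim25 (-0.30 ± 0.14). Adar was at 104, 134 and 86.6 CPM in CD4 KO lymphoma and 128, 161 and 134 CPM in CD4 WT lymphoma. In CD8 cells the smallest p belonged to Parp9 (-0.60 ± 0.18, adjusted p = 0.141), Isg20 (1.03 ± 0.31, adjusted p = 0.151) and Zbp1 (-0.43 ± 0.15, adjusted p = 0.185). Parp9 was at 46.6, 61.9 and 36.1 CPM in CD8 KO lymphoma and 69.3, 78.6 and 74 CPM in CD8 WT lymphoma. Isg20 was at 49.4, 24.3 and 21.9 CPM in CD8 KO lymphoma and 10.7, 16.7 and 20.1 CPM in CD8 WT lymphoma. None of these 3 overlapped between groups. Without CD8 KO lymphoma 2, 6 genes were lower in KO past the threshold, namely Herc6, Parp9, Parp10, Ddx60, Adar and Epsti1, and the share of all genes lower was 5.35% in that fit. Summed monocyte and macrophage markers were 2188 to 3117 CPM in CD4 KO lymphoma and 1255 to 1824 CPM in CD4 WT lymphoma. In CD8 cells they were 2170.1 to 2899 CPM in KO and 1196 to 1999 CPM in WT lymphoma. Natural killer cell sums were also higher in KO lymphoma in both co-receptors, without overlap. So were platelet sums in CD4 cells and neutrophil sums in CD8 cells, and the other sums overlapped. The part of these markers was not tested.

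The difference between the lymphoma responses, KO minus WT, was tested directly, since calls in 1 genotype and not in the other do not show it. None of the 35 genes passed in either co-receptor, and 0.0% of all genes did. The difference was above 0 for 3 of the 35 genes in CD4 and 1 in CD8 cells, with medians of -0.43 and -0.39 where all genes had -0.02 and -0.03. At an unadjusted p under 0.05, 10 of the 35 genes were lower in CD4 cells (2.51% of all genes), and 9 were lower (2.27%) and 1 higher (1.23%) in CD8 cells. In CD4 cells Isg15 had the smallest p, with a difference of -1.29 ± 0.39 (95% interval -2.14 to -0.43). Lgals3bp (-0.70 ± 0.24) and Trim25 (-0.54 ± 0.20) came next, and all 3 had an adjusted p of 0.9999. In CD8 cells Usp18 differed by -1.45 ± 0.24 (95% interval -1.98 to -0.93, unadjusted p = 5.88e-05, adjusted p = 0.743). DESeq2 gave it an adjusted p of 0.00636, and over 21 alternatives its adjusted p ran from that value to 1.0. Lgals3bp (-0.71 ± 0.18) and Bst2 (-0.74 ± 0.23) came next. This difference in Usp18 is built from the same CD8 KO controls that lay above the WT controls.

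Between the co-receptors of the same mice, few of the 35 genes differed. Epsti1, named for its induction in epithelium by stroma, was higher in CD8 than in CD4 cells in all 4 conditions. Epsti1 was at 121, 245 and 153 CPM in CD8 KO lymphoma and 125, 91.4 and 89 CPM in CD4 KO lymphoma (0.89 ± 0.20, adjusted p = 0.0145). It was at 161, 221 and 188 CPM in CD8 KO control and 95.2, 92.3 and 93.9 CPM in CD4 KO control (1.11 ± 0.20, adjusted p = 0.00135). In WT lymphoma it was at 241, 231 and 215 CPM in CD8 and 99.8, 80.9 and 86.9 CPM in CD4 cells (1.43 ± 0.20). In WT control it was at 224, 230 and 187 CPM in CD8 and 66.7, 65.1 and 69.1 CPM in CD4 cells (1.71 ± 0.20). The groups were apart in all conditions but KO lymphoma, where the CD8 and CD4 libraries of pool 1 were level, and where the call was lost without CD4 KO lymphoma 3 or without CD8 KO lymphoma 2. Over the 10 alternatives for that condition the adjusted p ran from 0.000931 to 0.133. Of all genes tested, the share higher in CD8 cells was 1.11% in KO lymphoma, 2.35% in KO control, 1.16% in WT lymphoma and 1.86% in WT control.

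Ifi27l2a was lower in CD8 cells of both control groups. It was at 84.8, 93 and 76.6 CPM in CD8 KO control and 177, 173 and 157 CPM in CD4 KO control (-0.91 ± 0.21, adjusted p = 0.0122), and at 73, 65.7 and 59.8 CPM in CD8 WT control and 134, 133 and 88.2 CPM in CD4 WT control (-0.82 ± 0.21, adjusted p = 0.0332). Isg20 was lower in CD8 KO control, at 4.28, 6.73 and 4.41 CPM, than in CD4 KO control, at 14.6, 35.7 and 24.2 CPM (-2.17 ± 0.35, adjusted p = 0.000452). Of all genes, 2.6% were lower in CD8 KO control and 1.62% in CD8 WT control. The Ifi27l2a call in WT control was lost without CD4 WT control 1 or 2 or without any 1 of the CD8 WT controls, and in KO control without CD8 KO control 1 or 3. Without CD4 WT control 1, 2 of the 35 genes were higher in CD8 WT control in place of 1. With the mouse pool as a block, which takes up the pairing of the libraries by mice, Mx1 was also higher in CD8 KO control (1.01 ± 0.23, adjusted p = 0.0142), and Ifi27l2a was also lower in CD8 WT lymphoma (-0.47 ± 0.11, adjusted p = 0.0248, 1.38% of all genes lower in the fit without the block). No gene of the 35 was lower in CD8 than in CD4 KO lymphoma (1.24% of all genes). The 3 CD8 libraries lay above the 3 CD4 libraries for 0 of the 35 genes in KO lymphoma (2.73% of all genes), 4 in KO control (9.11%), 1 in WT lymphoma (5.69%) and 3 in WT control (7.35%). They lay below for 0 in KO lymphoma (8.73%), 9 in KO control (24.5%), 3 in WT lymphoma (14.7%) and 2 in WT control (10.1%).

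The lymphoma response itself, CD8 minus CD4, passed for none of the 35 genes and for 0.0% of all genes in either genotype. In WT mice the smallest p belonged to Usp18 (0.45 ± 0.34), Mx1 (-0.62 ± 0.52) and Ifi27l2a (0.34 ± 0.30). In KO mice it belonged to Isg20, with a difference of 2.33 ± 0.47 (95% interval 1.34 to 3.31, unadjusted p = 7.85e-05, adjusted p = 0.473). With the mouse pool as a block Isg20 passed (2.22 ± 0.40, adjusted p = 0.0457), as it did in DESeq2 (adjusted p = 0.0161), and over its 16 alternatives the adjusted p ran from 0.0161 to 1.0. Isg15 (1.11 ± 0.44) and Ifi27l2a (0.52 ± 0.29) came next. CD8 KO lymphoma 1 and CD4 KO control 2, with the highest erythroid sums, were the highest of their groups for Isg15 and Isg20. The part of erythroid RNA, and of the other cells' RNA in CD8 KO lymphoma 1, in the difference was not tested.

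**Figure D5:**
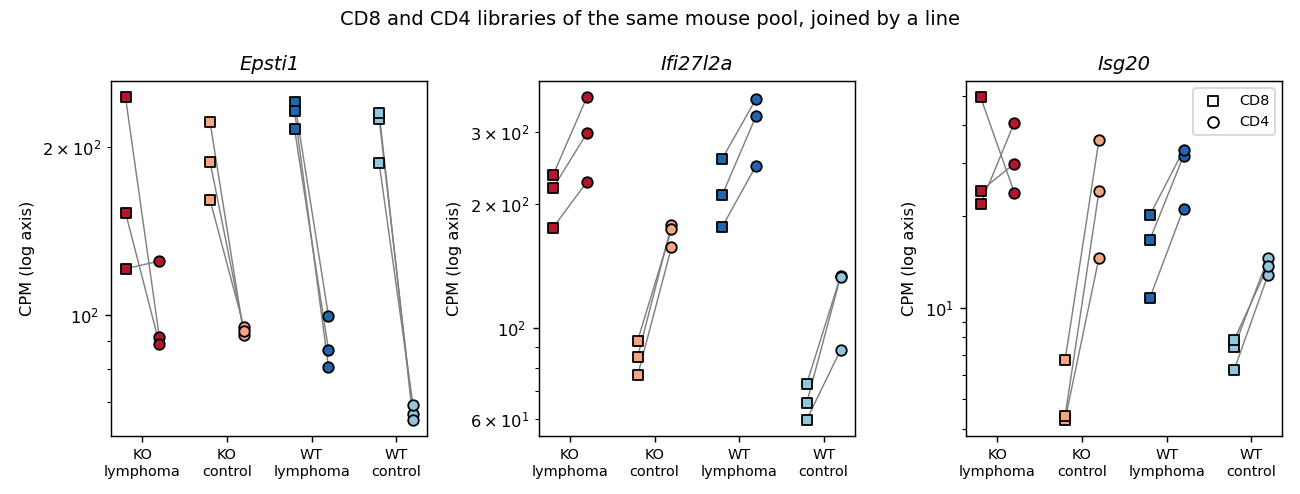
CPM (log axis) of Epsti1, Ifi27l2a and Isg20 in the CD8 (square) and CD4 (circle) library of each mouse pool, joined by a line, by group. Epsti1 lies higher and Ifi27l2a lower in the CD8 library of nearly every pool, and Isg20 is lowest in CD8 KO control, at 4.28 to 6.73 CPM.

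Other genes of the interferon pathway are given by counts, to be read against the shares of all genes that rose in the same comparisons, 1.62% in CD4 WT, 1.26% in CD8 WT and 1.39% in CD8 KO lymphoma against control, and 1.94% in CD4 KO against WT control. In CD4 WT lymphoma against control 6 of 8 OAS family genes rose (median 2.03, with Oasl2 and Oas1a of smallest p), as did 4 of 7 Ifit family genes (1.99, Cmpk2 and Ifit1), 4 of 15 interferon-induced GTPases (0.78, Mx2 and Irgm1), 1 of 7 Schlafen genes (0.63, Slfn4) and 2 of 15 IRF and STAT factors (0.34, Irf7 and Stat3). In CD8 WT lymphoma against control the counts were 6 of 8 OAS (median 2.11), 4 of 7 Ifit (2.19), 3 of 15 GTPase (0.74) and 1 of 7 Schlafen genes (0.54). There 2 of 15 IRF and STAT factors rose as well. In CD8 KO lymphoma against control 3 of 8 OAS (1.17), 5 of 7 Ifit (1.49), 1 of 15 GTPase (0.25) and 1 of 7 Schlafen genes (0.38) rose, Irf7 rose and Irf3 fell. In CD4 KO control against WT control 4 of 8 OAS genes rose (1.07), and so did Irf8, Il10rb and Ifng, the gene of the type II interferon. In CD8 KO control against WT control 1 of 8 OAS genes and 1 of 8 interferon receptor and kinase genes rose, where 0.403% of all genes did. Of 17 type I interferon genes, 2 had any count, 5 counts in all over 24 libraries, so the ligands could not be tested at this depth. None of the 8 receptor and kinase genes tested passed in either WT comparison with the lymphoma. Many of these counts moved with 1 library left out. In CD4 WT lymphoma against control the OAS count was 5 to 6 with any 1 library left out, and the Ifit count was 2 without WT lymphoma 2. There the GTPase count was 1 and the Schlafen count 0 with any 1 library other than WT lymphoma 1 left out, and the IRF and STAT count was 0 to 1 with any 1 library left out. In CD8 WT lymphoma against control the OAS count was 2 without WT control 3 and 3 without WT lymphoma 3, and the Ifit count stayed at 3 to 4. The GTPase count there was 0 without WT control 3 and 1 without WT control 1 or WT lymphoma 3, and the Schlafen count was 0 with any 1 library other than WT lymphoma 1 left out. The IRF and STAT count in CD8 WT lymphoma was 0 without WT control 3 and 1 with any 1 other library left out. In CD8 KO lymphoma against control all 5 lists had 0 risers without any 1 of the KO controls. Without KO lymphoma 1 the Ifit count there was 2 and the other counts 0, and without KO lymphoma 3 the Ifit count was 3 and Irf7 was not called. In CD4 KO against WT control the OAS count was 0 without WT control 1 or any 1 of the KO controls and 2 without WT control 2, against 4 with all 6. Ifng passed in none of the 6 fits that left out 1 library, and Irf8 and Il10rb passed in 1 of them, the fit without WT control 3. In CD8 KO against WT control the OAS count stayed at 1 in all 6 such fits, and the receptor and kinase count was 0 to 1.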

How the data were processed

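Estimated counts per gene of 24 libraries were deposited by the authors in 1 table, with no normalization named. The libraries were made with the Lexogen QuantSeq 3′ FWD kit, per the labels' protocols. Salmon 0.11.3 and the human build GRCh38 are named in the submitters' processing notes with no role given. Of 34113 genes 2 held a letter in place of a number and were dropped, which left 34111, and values were rounded to whole counts. Genes were kept with filterByExpr (minimum count 10, minimum total 15). CD4 and CD8 libraries were fitted apart, 12 each, with 8 residual degrees of freedom, and all 24 together, with 16, for CD8 against CD4.

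Each comparison is a contrast of group means in edgeR 4.0.16 (R 4.3.3), with TMM scaling (factors 0.903 to 1.12), the robust quasi-likelihood test and Benjamini-Hochberg adjustment at 0.05 over all genes. The alternatives were DESeq2 size factors, DESeq2 1.42.0, weighted voom in limma 3.58.1, no count filter, at least 30 counts in 3 libraries, a Y-linked covariate, 1 fit of 24 libraries, blocks and each library left out. A B cell covariate was added after seeing the data. The code was tested on simulated data. The members, their roles and the lists were chosen with earlier results of these data known. The genes named with a test were those that passed in a comparison, or the 3 with the smallest p where none did, plus for KO the 6 with the smallest p in WT. A few others were named after their values were seen, as in KO lymphoma 3. Positions are from GENCODE M21 (GRCm38).

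CD4 and CD8 libraries with the same number share mice per the labels, and their residuals correlated between -0.0176 and 0.524 over 12 pairs. Libraries are pools of 2 or 3 mice, or of 1 mouse in WT lymphoma. Within a co-receptor p-values measure the spread between these libraries. The main fit of CD8 against CD4 did not use the pairing by mice, which only the mouse pool block took up.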

Additional observations from a re-analysis of the deposited data

Results flagged for a closer look

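Helz2, which encodes a helicase that acts as a transcriptional coactivator, differed between KO and WT in opposite directions in CD4 control and lymphoma libraries. Without lymphoma all 3 KO controls lay above all 3 WT controls, at 57.2, 64.2 and 58.7 CPM in KO and 56, 27.7 and 56.3 CPM in WT, with a log2 fold change of 0.31. With lymphoma all 3 KO libraries lay below all 3 WT libraries, at 65.3, 64.6 and 42.5 CPM in KO lymphoma and 74.4, 88.3 and 70.7 CPM in WT lymphoma, with -0.46. The test of the difference gave -0.77 ± 0.33 (95% interval -1.49 to -0.04, unadjusted p = 0.0404, adjusted p = 0.9999 in edgeR), so it did not pass. WT control 2 was far below the other WT controls, and 2 of 3 KO controls exceeded the highest WT control by under 3 CPM.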

How the results depend on the processing

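For the 76 named values of single genes, 1147 alternative values were computed. Of these 974 kept their direction and their side of the threshold, 147 lost the call, 26 gained one and 0 changed direction. Counts of the 35 genes that passed moved by more than 1.5 times in the following cases, and the cause was not tested. In CD4 KO lymphoma against control, where 0 passed, no filter gave 1, DESeq2 10, limma voom 16 and 1 fit of all libraries 2. In CD4 KO control against WT control, where 2 passed, DESeq2 size factors gave 1, DESeq2 5, limma voom 7, the replicate block 1 and the B cell covariate, chosen after seeing the data, 0. In CD8 WT lymphoma against control limma voom gave 26 in place of 16, and in CD8 KO lymphoma against control the replicate block gave 5 in place of 9. In CD8 KO control against WT control DESeq2 gave 4, limma voom 3 and the Y-linked covariate 0 in place of 1. In the CD8 response, KO minus WT, DESeq2 gave 1 lower. The mouse pool block gave 2 higher in CD8 against CD4 KO control, 1 lower in WT lymphoma and 1 higher in the KO response, CD8 minus CD4, where DESeq2 gave 1 as well.

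With each library left out in turn, the counts ran from 7 to 15 in CD4 WT and 8 to 14 in CD8 WT lymphoma against control, from 0 to 3 in CD4 KO and 0 to 11 in CD8 KO lymphoma against control, stayed at 0 in CD4 KO against WT control, and ran from 0 to 1 in CD8 KO against WT control. In CD8 KO against WT lymphoma 0 to 6 were lower. In CD8 against CD4 cells 1 to 2 were higher and 0 to 1 lower in WT control, 1 to 2 lower in KO control and 0 to 1 higher in KO lymphoma.

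Within a co-receptor the replicate number joins libraries of different mice, and their residuals correlated between -0.213 and 0.321 over 36 pairs. A library correlated best with its own number in 28 of 72 cases, each a library set against the 3 of another group. In CD4 KO against WT lymphoma all 3 correlations were above 0.1 (0.213, 0.171 and 0.321), and the replicate block left the count at 0 there. Besides the CD8 KO lymphoma and CD4 KO control counts given above, the block moved no count of the 35 genes within a co-receptor by over 1.5 times.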
